A study of Mus musculus with 13 samples.

Results

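The adult mouse submandibular gland was compared with the embryonic gland after the values of every sample had been brought to a common scale. The comparison took the 4 adult samples (2 at 4wk and 2 at 12wk) against the 7 embryonic samples (3 at E14.5, 2 at E16.5 and 2 at E18.5), which are 11 of the 13 samples of the series. Of the 23364 genes listed for each sample, 14601 reached at least 1 rescaled FPKM in at least 1 of the 13 samples and were tested. FPKM is the number of reads on a gene relative to its length and to all reads of the sample, and rescaled FPKM are these values divided by 1 factor per sample, described with the libraries. Differences are adult minus embryo in log2(FPKM + 1), which understates the change of low genes. Only genes with the same call under 4 different scalings are described as changed whatever the scaling.

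The series followed the gland by RNA-seq from embryo to adult. All samples were whole submandibular glands of C57BL/6 mice, without any transgene or treatment. Each E14.5 sample pooled the glands of 3 animals, and each E16.5 or E18.5 sample those of 2. The 2 P5 (neonatal) samples entered the fit for the estimate of the spread, and were not compared. The glands at 4wk and 12wk came from male mice, while the sex of embryos was not ascertained, so age and sex cannot be told apart. Replicates are separate samples of a time point. The comparison of stages pooled the time points of a stage. Its p-values thus measure the spread between samples of a stage, which includes differences between time points.

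The submandibular gland makes saliva. Its acinar cells translocate secretory proteins into the endoplasmic reticulum (ER), fold them there, and release them from granules together with salt and water, and its ducts change the salt content and in rodents add growth factors and kallikreins. In the embryo the epithelium branches inside a mesenchyme, under FGF, Wnt, Notch, Hedgehog and BMP signals, and many cells still divide.

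A few secretory transcripts filled the adult libraries. The 10 highest genes of a sample took a median of 7.18% of all FPKM over the 7 embryonic samples, and between 48.1% and 61.1% in the 4 adult ones. FPKM are scaled to the total of a sample, so every other gene is listed lower when a few take more. The factor that brings the median gene of a sample to a common level (the median-of-ratios factor over 13039 genes above 0 in all 13 samples) was between 1.148 and 1.38 in the embryo and between 0.617 and 0.714 in the adult. The difference between both stages in the mean log2 factor was 0.95. Embryonic libraries held from 17345305 to 37309531 reads on genes, and adult libraries from 5817293 (4wk replicate 1) to 28431454. In 4wk replicates 1 and 2, 1 read on a gene of 1 kilobase was worth 0.241 and 0.204 rescaled FPKM. Levels near these values in both 4wk samples rest on single reads.

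**Figure D1:**
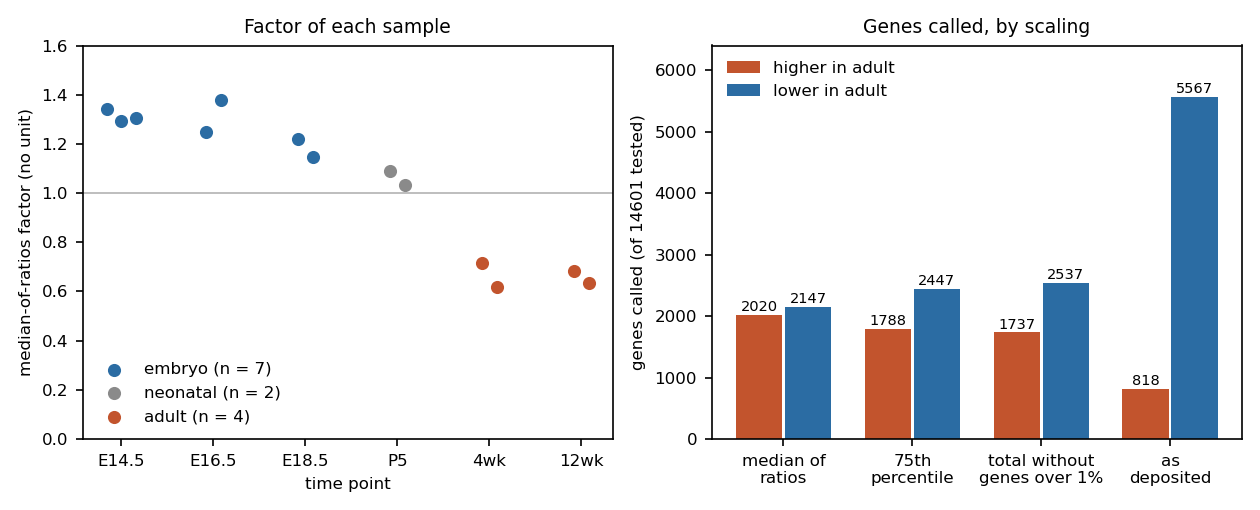
Left, median-of-ratios factor of each sample (no unit) by time point, with embryonic samples in blue, P5 in grey and adult in orange. Embryonic factors lie between 1.148 and 1.38 and adult factors between 0.617 and 0.714. Right, number of genes called higher (orange) and lower (blue) in the adult under each of 4 scalings, from 2020 and 2147 after median-of-ratios rescaling to 818 and 5567 as deposited.

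After rescaling, 2020 genes rose and 2147 fell in the adult, where a call needed a log2 difference of 1 or more in either direction with a limma p below 0.1 after Benjamini-Hochberg adjustment. These are 13.8% and 14.7% of the tested genes. With the FPKM as deposited, 818 genes (5.6%) rose and 5567 (38.1%) fell. The share of calls that were rises was thus 48.5% after rescaling and 12.8% as deposited. The median difference over all tested genes was -0.05 after rescaling and -0.75 as deposited, and the deposited values moved the median gene by 0.80 relative to the rescaled ones.

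No gene was called in opposite directions. Opposite calls would need a gap of 2 between scalings, where the largest shift in the mean log2 factor was 0.95. The 818 genes that rose as deposited also rose under the other 3 scalings, and the 2147 that fell after rescaling also fell under the others. These 2965 genes were called under every scaling. A rise under every scaling is thus a rise as deposited, and a fall is a fall after rescaling. As rises and falls meet unlike bars, their counts under every scaling are not directly comparable. In rescaled values, samples of both stages did not overlap for 759 of the 818 rises and 1962 of the 2147 falls. Non-overlap in the same direction was seen in 20.4% (higher) and 23.4% (lower) of all tested genes. Overlap is given for rescaled values throughout, and may differ as deposited. Genes named for their large changes were chosen among those without overlap, so non-overlap is no separate result for them. A larger margin held for 279 rises, with a difference of at least 2 as deposited, and for 652 falls, with a difference of -2 or less after rescaling. Between rescaled and deposited values alone, another 1202 genes rose after rescaling and were not called as deposited, and 3420 fell as deposited and were not called after rescaling. The other 2 scalings gave counts between these, with 1788 and 1737 rises and 2447 and 2537 falls. None of the scalings counts RNA per cell, so a level here is always relative to the rest of the sample. In whole glands, more cells of a type and more RNA per cell cannot be told apart.

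The largest rises were in genes of secreted proteins. Among the genes called under every scaling without overlap of samples, the 6 with the largest rise were Scgb1b27, 2310057J18Rik, Klk1b9, Klk1b22, Scgb2b27 and Scgb2b26. The secretoglobins (Scgb) and glandular kallikreins (Klk1b) belong to families of near-identical copies, and reads that mapped to several places were dropped, so that how reads were split between copies is uncertain and no values are given for them. The transcript 2310057J18Rik (mm9 chr10:28692094-28706109, minus strand) was between 0.151 and 6.45 (median 4.45) rescaled FPKM in the embryo and 20380 and 28750 at 4wk and 21980 and 27100 at 12wk, a log2 difference of 12.67 ± 0.50 (SE, adjusted p = 5.28e-10). Its mean was 4.43 at E14.5, 0.16 at E16.5 and 5.95 at E18.5, so the embryonic level did not rise steadily with age. It was the only gene of these 6 outside both families.

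The 6 genes with the largest falls among those called under every scaling without overlap were H19, Dlk1, AF357359, Igf2, Cdkn1c and Agtr2. H19 (mm9 chr7:149761434-149764048), a long noncoding RNA, was between 1102 and 2420 (median 1765) rescaled FPKM in the embryo and 5.71 and 2.57 at 4wk and 2.47 and 3.27 at 12wk, a difference of -8.53 ± 0.24 (SE, adjusted p = 3.52e-11). Its neighbour Igf2 (chr7:149836673-149852721), an embryonic growth factor, was between 356 and 778 (median 473) and then 1.42 and 1.39 at 4wk and 1.35 and 1.68 at 12wk, a difference of -7.67 ± 0.21 (SE, adjusted p = 2.52e-11). Further along chromosome 7, Cdkn1c (chr7:150644255-150646955), an inhibitor of cyclin-dependent kinases, fell by 7.27 on the log2 scale, from between 334 and 1012 (median 629) to 2.85 and 2.94 at 4wk and 2.56 and 2.55 at 12wk. All 3 genes are imprinted, which means that in most tissues they are read from 1 parental copy.

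Dlk1, an imprinted Notch-like ligand on chromosome 12, was between 337 and 426 (median 349.9) rescaled FPKM in the embryo and 0.450 and 0.212 at 4wk and 0.349 and 0.543 at 12wk, a difference of -8.02 ± 0.10 (SE, adjusted p = 3.07e-15). Agtr2, an angiotensin II receptor, was between 105 and 181 (median 136) and then 0 and 0.638 at 4wk and 0.211 and 0.174 at 12wk. AF357359, a noncoding transcript, was between 519 and 773 (median 616) in the embryo, 0 in both 4wk samples, and 8.97 and 3.71 at 12wk. That adult and embryonic samples did not overlap was a condition for choosing these 6 genes. As deposited their differences were larger still, between -7.29 (Agtr2) and -9.31 (H19).

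**Figure D2:**
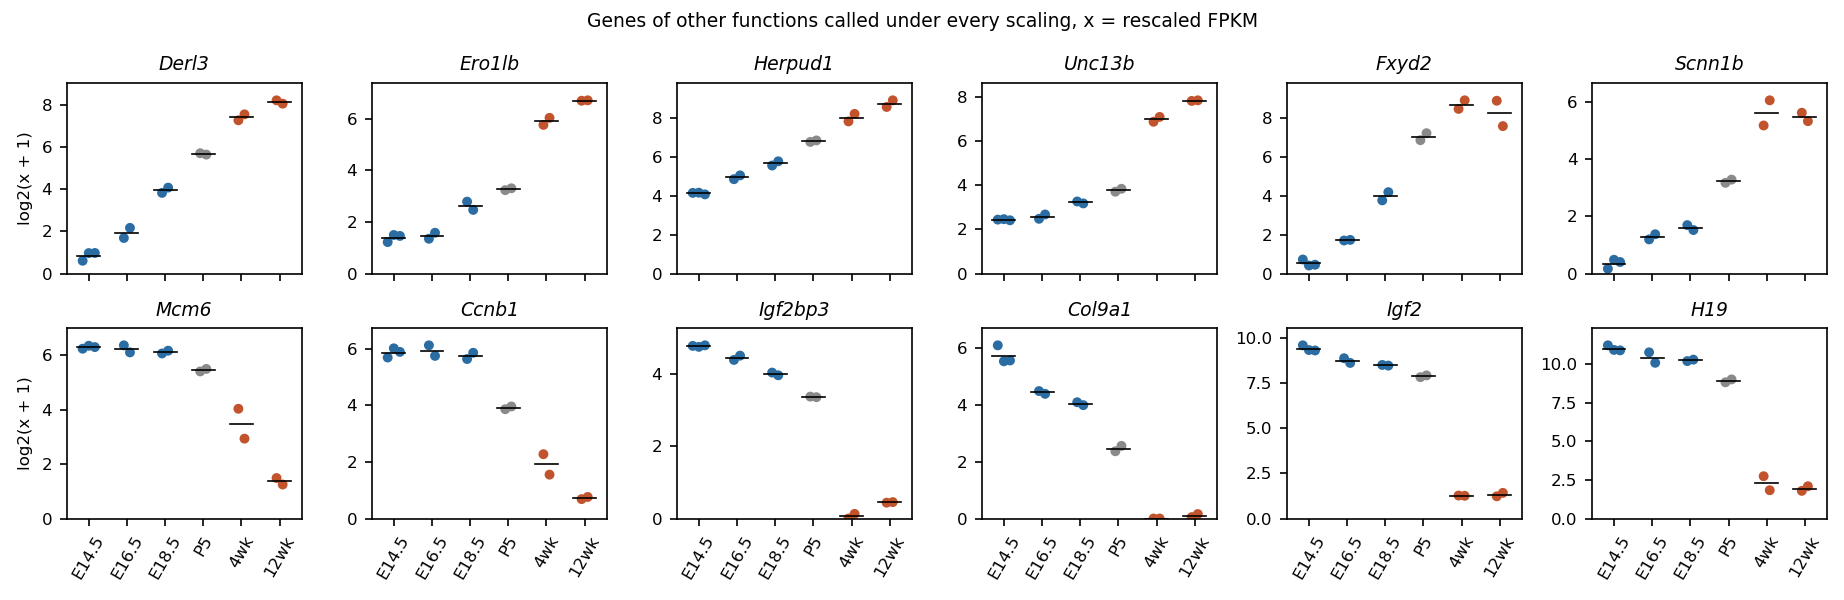
Level of 12 genes in each sample as log2 of the rescaled FPKM plus 1, by time point (blue embryo, grey P5, orange adult, with a black bar at the mean of each time point). For Derl3, Ero1lb, Herpud1, Unc13b, Fxyd2 and Scnn1b all adult samples lie above all embryonic samples. For Mcm6, Ccnb1, Igf2bp3, Col9a1, Igf2 and H19 they lie below. The genes were chosen among those without overlap.

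The machinery of the ER was higher in the adult, most clearly for folding and quality control. Of 26 tested ER chaperones and disulfide enzymes, 15 rose and 2 fell after rescaling, and 7 rose and 2 fell under every scaling. Of 26 ER stress sensors and components of ER-associated degradation, 17 rose and none fell, and 7 rose under every scaling. Their median differences were 1.35 and 1.39 after rescaling and 0.42 and 0.48 as deposited. Rises under every scaling were 26.9% of the members of both lists, where they were 5.6% of all tested genes.

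Several promoters of these genes hold the ER stress response element, the sequence through which ATF6, with the CCAAT-binding factor NF-Y, activates chaperone genes. Windows from 250 bases before to 50 after the start of 27025 RefSeq genes (build GRCm38.p6) were searched on both strands for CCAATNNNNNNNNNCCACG, which holds a CCAAT box within it. It was found in 37 genes, or 0.137%. Among the 23 tested chaperone genes with a window it was found in 8 (34.8%), and among 21 genes of stress sensors and degradation in 2. It was found in none of the 19 genes of ER translocation, 29 of vesicle coats, 15 of exocytosis and 18 of fluid transport with a window. The CCAAT box alone was in 41.1% of all genes and in 20 of these 23 chaperone genes. The following 6 stretches upstream of the start are those of the genes that rose, in the direction of the gene, with the fixed letters of the element in capitals (on the opposite strand it reads CGTGG first).
Ero1lb (RefSeq Ero1b), chr13:12565662-12565720, plus strand: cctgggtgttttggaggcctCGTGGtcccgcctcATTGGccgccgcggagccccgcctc
Dnajc3, chr14:118937807-118937865, plus strand: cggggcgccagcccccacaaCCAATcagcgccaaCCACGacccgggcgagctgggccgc
Creld2, chr15:88819500-88819558, plus strand: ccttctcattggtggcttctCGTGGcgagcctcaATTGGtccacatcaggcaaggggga
Hspa5, chr2:34772005-34772063, plus strand: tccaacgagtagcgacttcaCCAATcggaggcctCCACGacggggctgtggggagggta
Derl3, chr10:75893222-75893280, plus strand: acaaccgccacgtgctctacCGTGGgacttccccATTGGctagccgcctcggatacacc
Syvn1, chr19:6046512-6046570, plus strand: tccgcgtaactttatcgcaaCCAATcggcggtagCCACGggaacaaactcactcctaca

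Derl3, a channel component of ER-associated degradation, was between 0.521 and 15.9 (median 2.22) rescaled FPKM in the embryo and 154 and 187 at 4wk and 298 and 267 at 12wk. It differed by 5.73 ± 0.61 (SE, adjusted p = 3.35e-06), and by 4.91 as deposited. Ero1lb, the oxidase that recharges disulfide isomerases, was between 1.33 and 5.92 (median 1.82) and then 53.6 and 65.0 at 4wk and 104 and 105 at 12wk, a difference of 4.55 ± 0.30 (SE, adjusted p = 5.51e-08). Herpud1, a stress-induced organiser of the degradation complex, rose by 3.59 on the log2 scale, from between 15.9 and 54.1 (median 28.1) to 228 and 299 at 4wk and 383 and 487 at 12wk. No adult sample overlapped an embryonic one in these 3 genes, which was a condition of their choice.

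Dnajc3 and Creld2, both cofactors of ER folding, rose under every scaling, with differences of 2.35 rescaled and 1.42 as deposited for Dnajc3 and 2.01 rescaled and 1.08 as deposited for Creld2. Hspa5, the main ER chaperone BiP, was between 221 and 367 (median 325) in the embryo and 528 and 524 at 4wk and 1228 and 1510 at 12wk. Its difference of 1.47 ± 0.29 (SE, adjusted p = 6.25e-04) did not pass as deposited (0.53), and Syvn1, the ubiquitin ligase of the degradation complex, was likewise called after rescaling and not as deposited (1.62 rescaled and 0.72 as deposited). The other 4 chaperone genes with the element did not pass under either scaling. They were Hsp90b1, Calr, Canx and Pdia6, with rescaled differences of 0.49, 0.89, 0.26 and 0.16. The element was thus found in genes that rose and in genes that did not.

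The sensors of the unfolded protein response followed the scaling. Eif2ak3 (PERK) was between 8.90 and 16.04 (median 10.4) in the embryo and 41.1 and 41.9 at 4wk and 41.8 and 43.4 at 12wk, and its difference was 1.84 rescaled and 0.93 as deposited. Atf6 differed by 1.66 rescaled and 0.79 as deposited, and Xbp1 by 1.78 rescaled and 0.84 as deposited. All 3 were called under every scaling but the deposited one, and their adult and embryonic samples did not overlap in rescaled values. Fkbp11, an ER prolyl isomerase, rose whatever the scaling, from between 10.7 and 74.5 (median 25.8) to 144 and 161 at 4wk and 163 and 196 at 12wk (2.66 rescaled).

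Not every ER gene was higher. Prdx4, an ER peroxidase, fell by 2.046 on the log2 scale, from between 73.2 and 173 (median 94.5) to 38.3 and 27.98 at 4wk and 21.5 and 16.9 at 12wk. Fkbp14, a prolyl isomerase that acts on collagen, fell by 1.97, from between 14.6 and 30.3 (median 19.4) to 4.46 and 4.85 at 4wk and 4.10 and 4.31 at 12wk. Both fell under every scaling. The summed level of 10 fibroblast markers, collagens among them, was lower too in these samples, and is given with the collagens.

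Entry into the ER and the vesicle coats changed less. Of 26 genes of ER translocation and signal peptide processing, 10 rose after rescaling (38.5%) and 3 under every scaling (11.5%), where 13.8% and 5.6% of all tested genes did. These 3 were Sec11c, a signal peptidase subunit, with a difference of 2.64 ± 0.68 (SE, adjusted p = 0.00426), Srpr, a subunit of the signal recognition particle receptor, with 2.34 ± 0.20 (SE, adjusted p = 6.06e-07), and Tram1 with 2.26. The mean of Sec11c was 19.4 at E14.5, 96.1 at E16.5 and 218 at E18.5, so much of its rise lay within the embryo. The pore subunit Sec61a1 stood at between 71.9 and 109 (median 84.2) in the embryo and 232 and 268 at 4wk and 214 and 253 at 12wk, yet its difference was 1.46 rescaled and 0.51 as deposited. Of 33 coat and cargo receptor genes, 10 rose after rescaling (30.3%) and only 1 under every scaling (3.03%). It was Mcfd2, a cargo receptor of the COPII pathway, with 2.45 ± 0.24 (SE, adjusted p = 1.55e-06). Of 10 subunits of the oligosaccharyltransferase, 2 rose after rescaling (4 without 4wk replicate 1, 1 without 12wk replicate 2) and none under every scaling. The medians of coats and oligosaccharyltransferase were 0.80 and 0.61 after rescaling and -0.13 and -0.33 as deposited.

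Genes of granule release rose in part. Of 25 tested genes of regulated exocytosis, 13 rose and 1 fell after rescaling, and 6 rose and 1 fell under every scaling. The rises were 52% and 24% of the list, where 13.8% and 5.6% of all tested genes rose. The 6 were Unc13b, Rab27a, Sytl5, Sytl1, Rab3a and Rab26. Unc13b, which primes vesicles for fusion, was between 4.31 and 8.57 (median 4.56) in the embryo and 116 and 135 at 4wk and 223 and 227 at 12wk, a difference of 4.70 ± 0.23 (SE, adjusted p = 2.91e-09). Rab27a, a GTPase that docks granules, was between 3.42 and 12.1 (median 6.55) and then 37.7 and 61.3 at 4wk and 63.8 and 63.1 at 12wk, a difference of 2.85 ± 0.26 (SE, adjusted p = 1.02e-06). Stx2, a syntaxin of the plasma membrane, fell instead by 2.08 on the log2 scale, from between 9.03 and 14.52 (median 13.01) to 2.06 and 1.601 at 4wk and 2.32 and 2.13 at 12wk. Without the 3 E14.5 samples, 7 genes of this list were called higher after rescaling.

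Mucin-type O-glycosylation moved in both directions. Of 27 tested genes 7 rose and 6 fell after rescaling (25.9% and 22.2%), and 4 rose and 6 fell under every scaling (14.8% and 22.2%). Of all tested genes 13.8% rose and 14.7% fell after rescaling, and 5.6% and 14.7% under every scaling. Galnt3, an enzyme that adds the first sugar, rose by 3.11 ± 0.38 (SE, adjusted p = 1.07e-05), and St6galnac1, St6galnac2 and C1galt1, which extend or cap the chain, rose with it (by 3.03, 2.87 and 2.69 after rescaling). Its relative Galnt16 was between 7.26 and 15.4 (median 10.9) in the embryo and 0 and 0.779 at 4wk and 0.583 and 0.581 at 12wk, a difference of -3.07 ± 0.21 (SE, adjusted p = 5.68e-08).

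Among the lists of secretion, transport of fluid and salt had the largest share of rises whatever the scaling. Of 27 tested genes, 21 rose (77.8%) and 1 fell after rescaling, and 16 rose (59.3%) and 1 fell under every scaling. Of all tested genes 13.8% rose after rescaling and 5.6% under every scaling. The median difference was 2.19 after rescaling and 1.58 as deposited. Fxyd2, a subunit of the sodium pump, was between 0.330 and 17.1 (median 2.24) rescaled FPKM in the embryo and 351 and 477 at 4wk and 469.8 and 189.8 at 12wk, a difference of 6.61 ± 0.68 (SE, adjusted p = 2.63e-06). Scnn1b, a subunit of the epithelial sodium channel, was between 0.122 and 2.24 (median 1.29) and then 35.5 and 66.3 at 4wk and 48.8 and 39.5 at 12wk, a difference of 4.58 ± 0.29 (SE, adjusted p = 4.00e-08). Every adult sample was above every embryonic sample in both genes, which was a condition of their choice.

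Acinar transporters rose beside those of ducts. Slc12a2, the sodium-potassium-chloride importer of acinar cells, was between 12.2 and 73.7 (median 25.5) in the embryo and 251 and 297 at 4wk and 134.2 and 203 at 12wk, a difference of 2.87 ± 0.44 (SE, adjusted p = 9.15e-05). Aqp5, the acinar water channel, was between 0.424 and 148 (median 75.7) and then 367 and 348 at 4wk and 207 and 217 at 12wk. Its difference of 3.38 ± 1.13 (SE, adjusted p = 0.0193) was 2.68 without E14.5 replicate 1, in which it was lowest. The mean of Aqp5 was 4.02 at E14.5, 83.8 at E16.5 and 141 at E18.5, so much of its rise lay within the embryo. Cftr, a chloride channel, was between 0.582 and 3.87 (median 1.87) in the embryo, 10.6 and 12.1 at 4wk and 47.4 and 43.2 at 12wk, a difference of 3.09 ± 0.44 (SE, adjusted p = 4.42e-05). Kcnma1, a potassium channel, was called under every scaling but the deposited one (1.72 rescaled and 0.98 as deposited), and Aqp1 fell (-1.60 after rescaling). Acinar and duct markers were higher in the same samples.

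Genes of cell division were lower in the adult, nearly all of them whatever the scaling. Of 45 tested genes of DNA replication 37 fell, and of 38 genes of mitosis 36 fell, with none higher. Calls of a fall were 82.2% and 94.7% of these lists, against 14.7% of all tested genes. The median differences were -2.02 and -3.55 after rescaling. As deposited 44 and all 38 fell.

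The promoters of both lists differed in the motifs they held. E2F sites, written here as TTTGGCGC or TTTCCCGC, were in 6 and 7 of 37 replication genes with a window (16.2% and 18.9%), and in 0.585% and 1.24% of all genes. The cell cycle homology region, TTTGAA, was in 23 of 32 mitosis genes with a window (71.9%), in 7 of the 37 replication genes (18.9%) and in 20.2% of all genes. None of these 32 windows held the E2F letters. The window taken for the mitosis gene Tpx2 through a synonym was that of another gene, Dazl, so the promoter of Tpx2 was not searched. Another 7 of 15 exocytosis genes held TTTGAA (46.7%), of which 6 rose after rescaling and 2 under every scaling, where 13 of 25 genes of the whole list and 13.8% of all tested genes rose after rescaling. Both strands were searched, and 1 replication gene held both E2F forms. The 3 genes of each list with the largest fall among those with the motif at least 20 bases before the start are shown, with the motif in capitals (E2F in the first 3, the homology region in the last 3).
Mcm6, chr1:128359725-128359772, minus strand: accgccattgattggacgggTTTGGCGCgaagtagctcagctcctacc
Mcm5, chr8:75109340-75109387, plus strand: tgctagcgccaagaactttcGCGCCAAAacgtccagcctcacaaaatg
Pola1, chrX:93632266-93632313, minus strand: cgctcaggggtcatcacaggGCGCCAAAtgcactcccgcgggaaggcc
Ube2c, chr2:164769880-164769925, plus strand: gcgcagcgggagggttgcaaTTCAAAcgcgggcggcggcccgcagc
Top2a, chr11:99024343-99024388, minus strand: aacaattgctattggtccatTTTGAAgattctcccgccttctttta
Cdk1, chr10:69352958-69353003, minus strand: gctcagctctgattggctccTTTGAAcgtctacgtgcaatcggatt

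Of the 12 replication genes with an E2F motif 11 fell, and of the 23 mitosis genes with the homology region 22 fell, where 37 of 45 and 36 of 38 fell in the whole lists. Mcm6, a subunit of the replicative helicase, was between 66.3 and 81.8 (median 74.95) in the embryo and 15.4 and 6.67 at 4wk and 1.81 and 1.38 at 12wk, a difference of -3.81 ± 0.40 (SE, adjusted p = 2.95e-06). Mcm5, of the same helicase, differed by -3.17, and Pola1, the catalytic subunit of polymerase alpha, by -2.40. Tk1, which makes thymidine monophosphate, was between 46.1 and 90.4 (median 66.3) and then 9.14 and 3.27 at 4wk and 2.80 and 2.27 at 12wk, a difference of -3.69 ± 0.27 (SE, adjusted p = 1.38e-07). In each of these genes the adult samples lay below the embryonic ones, which for Mcm6 and Tk1 was a condition of their choice.

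Ccnb1, the mitotic cyclin B1, was between 49.1 and 69.0 (median 57.3) in the embryo and 3.85 and 1.93 at 4wk and 0.610 and 0.696 at 12wk, a difference of -4.54 ± 0.25 (SE, adjusted p = 8.56e-09). Its partner Cdk1 was between 46.1 and 86.1 (median 53.0) and then 11.9 and 2.71 at 4wk and 0.658 and 0.952 at 12wk, and the difference of -4.01 became -4.64 without 4wk replicate 1. Ube2c, an enzyme of the anaphase-promoting complex, fell by 4.31 on the log2 scale, and Top2a, a topoisomerase of mitotic chromosomes, by 4.30. In all 4 genes 4wk replicate 1 was the highest adult sample.

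The call of translation genes depended on the scaling. Of 84 cytosolic ribosomal protein genes, 81 fell as deposited (96.4%), 17 fell after rescaling (20.2%) and none rose, where 38.1% and 14.7% of all tested genes fell. The median difference was -1.66 as deposited and -0.75 after rescaling, or 0.71 below that of all genes. Without E16.5 replicate 1 after rescaling 7 fell and 1 rose, without E18.5 replicate 2 these counts were 11 and 2, and without the 3 E14.5 samples 33 fell. Rps19, a protein of the small subunit, was between 724 and 1935 (median 932) in the embryo and 448 and 537 at 4wk and 328 and 397 at 12wk, a difference of -1.32 ± 0.26 (SE, adjusted p = 6.45e-04). Ribosomal protein genes have many processed copies in the genome, and reads on such copies were dropped, so these levels are uncertain.

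Other parts of the apparatus changed little after rescaling. Of 75 mitochondrial ribosomal protein genes none was called after rescaling, and 22 fell as deposited. Of 60 initiation and elongation factors 2 rose and 3 fell after rescaling, and 33 fell as deposited. The 3 falls were 1 without E16.5 replicate 1 and 5 without E16.5 replicate 2. Eef1b2, an elongation factor subunit, was between 294 and 635 (median 404) in the embryo and 191 and 203 at 4wk and 185 and 190.2 at 12wk, a difference of -1.08 ± 0.19 (SE, adjusted p = 2.40e-04) that lay at -0.97 and was not called without E16.5 replicate 1. Of 20 cytosolic tRNA synthetases 1 rose after rescaling and 3 fell as deposited. Of all tested genes 13.8% rose and 14.7% fell after rescaling, and 38.1% fell as deposited.

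**Figure D3:**
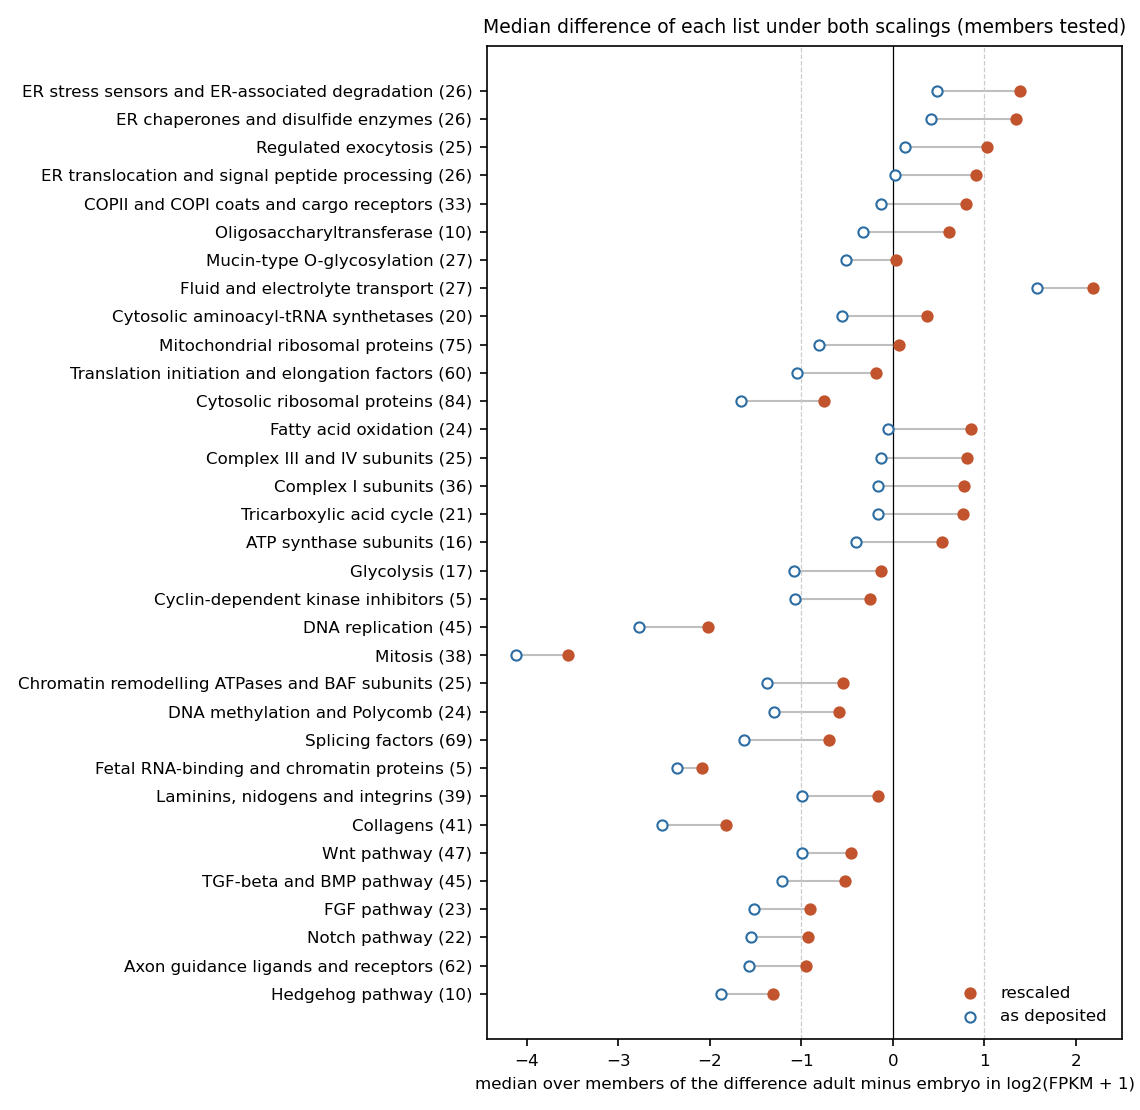
Median over the tested members of each list (number in brackets) of the difference adult minus embryo in log2(FPKM + 1), after rescaling (filled orange) and as deposited (open blue). Fluid and electrolyte transport lies above 0 under both scalings (2.19 and 1.58), mitosis far below 0 under both (-3.55 and -4.12), and complex I changes sign (0.78 and -0.16).

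Energy metabolism was another group whose call turned on the scaling. Of 21 genes of the tricarboxylic acid cycle 6 rose after rescaling and 1 fell as deposited, and none rose under every scaling. Of 36 subunits of complex I 4 rose, of 25 subunits of complexes III and IV 6 rose and 3 fell, and of 16 subunits of ATP synthase 2 rose, all after rescaling. The rises were 11.1% of complex I and 12.5% of ATP synthase subunits, near the 13.8% of all tested genes, and those of complexes III and IV were 24% and of the cycle 28.6%. Their median differences, between 0.54 and 0.81 after rescaling, lay between -0.40 and -0.13 as deposited, and the median of all genes moved likewise. Ogdh, a subunit of the oxoglutarate dehydrogenase of the cycle, was between 14.1 and 20.7 (median 18.8) in the embryo and 59.4 and 49.8 at 4wk and 87.3 and 72.3 at 12wk, a difference of 1.83 rescaled and 0.91 as deposited. Ndufa1 of complex I differed by 1.87 rescaled and 0.92 as deposited. For both genes no adult sample overlapped an embryonic one in rescaled values.

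The counts of the complexes rested on few samples. Without E18.5 replicate 2, 7 subunits of complex I rose, and without E16.5 replicate 1, 10 subunits of complexes III and IV. The 2 rises in ATP synthase became 1 without any single E14.5 or 4wk sample or E16.5 replicate 2. Of 24 genes of fatty acid oxidation 9 rose and 1 fell after rescaling, and 1 each under every scaling (Ehhadh, a peroxisomal enzyme, with 2.38, and Cpt1c with -1.72). Cox7a1, a complex IV subunit of muscle and brown fat, rose under every scaling, by 3.30 ± 0.61 (SE, adjusted p = 3.67e-04). It was between 1.37 and 29.2 (median 5.68) in the embryo and 162 and 56.2 at 4wk and 41.2 and 41.8 at 12wk, and 4wk replicate 1, the highest, also had the highest summed level of skeletal muscle and adipocyte markers among the adult samples. The part of these cells in the value was not tested. The 3 falls were Cox6a2, an isoform of heart and skeletal muscle, Cox6b2 and Cox4i2, with differences of -2.02, -1.79 and -1.10. Of 17 glycolytic genes 4 rose (23.5%) and 1 fell (5.88%) after rescaling, while 9 fell as deposited (52.9%). Of all tested genes 13.8% rose and 14.7% fell after rescaling, and 38.1% fell as deposited. Aldoc, an aldolase, fell whatever the scaling (-2.83).

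RNA processing and chromatin genes were lower in part. Of 69 splicing factors 19 fell under every scaling (27.5%) and 60 as deposited (87%), where 14.7% and 38.1% of all tested genes did. Snrpd1, a core protein of spliceosomal particles, was between 79.1 and 168 (median 112) in the embryo and 30.5 and 26.0 at 4wk and 27.7 and 27.4 at 12wk, a difference of -1.93 ± 0.18 (SE, adjusted p = 1.11e-06). Of 24 genes of DNA methylation and Polycomb 9 fell under every scaling, and 2, Cbx7 and Ezh1, rose after rescaling and not as deposited, a count that was 1 without 12wk replicate 1. Uhrf1, which recruits the maintenance methyltransferase, was between 21.7 and 58.3 (median 49.4) and then 10.4 and 2.29 at 4wk and 2.52 and 2.50 at 12wk, a difference of -3.21 ± 0.35 (SE, adjusted p = 3.93e-06). Cbx2 and Cbx7, which occupy the same place in Polycomb complexes, differed by -2.52 (lower whatever the scaling) and by 1.65 rescaled and 0.89 as deposited. Cbx2 was between 5.21 and 12.9 (median 9.13) in the embryo and 0.772 and 0.544 at 4wk and 0.809 and 0.743 at 12wk, and Cbx7 was between 0.854 and 3.69 (median 2.69) and then 9.90 and 8.58 at 4wk and 8.53 and 7.78 at 12wk.

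Of 5 fetal RNA-binding and chromatin proteins 4 fell under every scaling. Igf2bp3, which binds the Igf2 messenger, was between 14.7 and 27.0 (median 22.0) in the embryo and 0 and 0.0937 at 4wk and 0.356 and 0.371 at 12wk, a difference of -4.22 ± 0.18 (SE, adjusted p = 9.79e-10). Of 25 genes of chromatin remodelling 3 fell after rescaling (12%) and 20 as deposited (80%), where 14.7% and 38.1% of all tested genes did. The falls after rescaling were thus no more frequent than over all genes.

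Collagen genes were lower in the adult. Of 41 tested collagen genes 28 fell under every scaling (68.3%) and none rose (1 rose when any single one of E14.5 replicate 1, E14.5 replicate 3, E16.5 replicate 2 or 12wk replicate 2 was left out), with a median difference of -1.82 after rescaling. Col9a1, a collagen of cartilage and embryonic matrix, was between 14.8 and 66.8 (median 21.3) in the embryo and 0 and 0 at 4wk and 0.0346 and 0.114 at 12wk, a difference of -4.82 ± 0.36 (SE, adjusted p = 1.52e-07). Col26a1 was between 19.7 and 71.7 (median 44.4) and then 1.16 and 0.452 at 4wk and 0.149 and 0.308 at 12wk, a difference of -4.87 ± 0.34 (SE, adjusted p = 8.31e-08). The summed level of 10 fibroblast and mesenchyme markers, of which 3 are collagens, moved with them, between 1663 and 2075 in the embryo and between 416 and 769.9 in the adult.

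Of 39 basement membrane and integrin genes 5 rose and 10 fell after rescaling, and 3 and 10 under every scaling. The rises under every scaling were 7.69% and the falls 25.6%, where 5.6% and 14.7% of all tested genes rose and fell. Lamb3, a chain of an epithelial laminin, was between 0.858 and 9.85 (median 5.76) and then 19.1 and 23.8 at 4wk and 26.6 and 29.4 at 12wk, a difference of 2.14 ± 0.38 (SE, adjusted p = 2.82e-04). Itgb6, an epithelial integrin, rose by 2.12 ± 0.15 (SE, adjusted p = 1.08e-07). Nid2, a nidogen, fell by 3.34 on the log2 scale, from between 23.3 and 74.3 (median 47.4) to 5.57 and 4.59 at 4wk and 2.22 and 1.78 at 12wk.

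Embryonic signalling pathways had more falls than rises. Falls under every scaling were 10 of 47 Wnt genes, 9 of 22 Notch genes, 6 of 10 Hedgehog genes, 9 of 23 FGF genes, 12 of 45 TGF-beta and BMP genes and 29 of 62 axon guidance genes, where 14.7% of all genes fell. Rises under every scaling were 1, 0, 0, 2, 2 and 3, and after rescaling 3, 0, 0, 2, 3 and 5. Between 23 of 38 (FGF) and 62 of 71 (axon guidance) listed genes of these pathways reached the level for testing. As deposited, the falls were 23, 17, 9, 15, 29 and 37.

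In the Wnt pathway the ligand Wnt4 was the only rise under every scaling. It was between 3.07 and 8.52 (median 7.12) in the embryo and 39.0 and 34.9 at 4wk and 46.6 and 28.5 at 12wk, a difference of 2.52 ± 0.25 (SE, adjusted p = 2.25e-06). The secreted Wnt antagonists Sfrp1 and Sfrp2 had the largest falls, Sfrp1 from between 38.6 and 178 (median 71.8) to 3.19 and 6.94 at 4wk and 6.92 and 4.62 at 12wk, and Sfrp2 from between 19.5 and 125 (median 49.8) to 0.722 and 2.44 at 4wk and 2.02 and 1.81 at 12wk. Their differences were -3.73 and -4.19. Some falls in the pathway were thus in inhibitors.

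In the Notch pathway, Dlk1 aside, the largest fall was in the receptor Notch3, between 8.86 and 16.8 (median 10.4) in the embryo and 3.61 and 2.18 at 4wk and 2.80 and 2.72 at 12wk, a difference of -1.61 ± 0.17 (SE, adjusted p = 2.68e-06). In the Hedgehog pathway Gli3, a transcription factor that represses in the absence of ligand, was between 1.61 and 7.33 (median 3.89) and then 0.771 and 0.193 at 4wk and 0.168 and 0.178 at 12wk, a difference of -1.89 ± 0.26 (SE, adjusted p = 3.66e-05), and Smo, Gli2, Cdon, Gas1 and Sufu fell with it. The Hedgehog genes Ptch1, Boc and Gli1 were not called after rescaling, with differences between -0.92 (Gli1) and -0.13 (Ptch1).

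FGF targets of the Ets family diverged. Etv4 was between 4.59 and 13.4 (median 9.004) in the embryo and 0.309 and 0.261 at 4wk and 0.576 and 0.214 at 12wk, a difference of -2.90 ± 0.26 (SE, adjusted p = 8.04e-07). Etv5 fell by 2.84 on the log2 scale, from between 12.1 and 58.4 (median 27.9) to 4.35 and 2.34 at 4wk and 4.52 and 2.08 at 12wk. Etv1, the third member of the group, rose by 2.24 ± 0.53 (SE, adjusted p = 0.00236), from between 3.06 and 35.8 (median 11.4) to 47.8 and 62.1 at 4wk and 64.0 and 68.0 at 12wk. Fgf9, a ligand, also rose (2.00), while the ligand Fgf10 (-1.74) and the receptor Fgfr1 (-1.90) fell, and these directions held under every scaling.

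Among TGF-beta family ligands, Tgfb2 rose by 3.28 ± 0.22 (SE, adjusted p = 5.17e-08), from between 2.51 and 5.81 (median 4.42) to 30.3 and 49.4 at 4wk and 59.3 and 45.4 at 12wk. Bmp7 fell by 2.36 on the log2 scale, from between 10.8 and 30.3 (median 20.5) to 3.92 and 3.31 at 4wk and 2.77 and 2.52 at 12wk. Fstl1, a secreted BMP antagonist, fell by 2.53, from between 167 and 217 (median 195) to 43.5 and 38.3 at 4wk and 30.3 and 22.9 at 12wk. Among axon guidance genes the ligand Slit2 rose by 1.82 ± 0.17 (SE, adjusted p = 9.98e-07) and its receptor Robo2 fell by 3.07. The Slit2 difference was 1.00 as deposited, just inside the threshold.

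Of 946 listed regulators of transcription 708 were tested. A regulator present at 1 stage only enters by that stage, so the tested ones are not all those listed. Of the 708, 24 rose and 114 fell under every scaling. These are 3.39% and 16.1% of them, where 5.6% and 14.7% of all tested genes did. After rescaling 63 rose (8.9%), and as deposited 312 fell. The families differed in their counts. Basic leucine zipper factors (12 rises, 3 falls of 44 after rescaling), nuclear receptors (12 and 5 of 36) and Stat, Irf and NF-kappaB factors (6 and 1 of 25) had more rises than falls, while homeobox factors (3 and 18 of 70), Sox factors (0 and 5 of 14), T-box factors (0 and 3 of 5) and E2f, Myc and Myb factors (3 and 10 of 26) had more falls. Under every scaling the rises in these families were 3, 5, 2, 1, 0, 0 and 0, so part of the contrast between families is not seen in the deposited values. In the other families, rises and falls after rescaling were 8 and 8 of 42 basic helix-loop-helix, 3 and 1 of 22 forkhead, 3 and 6 of 22 Ets, 2 and 2 of 19 Klf and Sp and 0 and 1 of 3 Gata factors. Zinc fingers of the Sall, Zic, Snai, Gli and Egr groups had 2 and 14 of 32, Runx, Tead, Nfi, Grhl and Tfap2 factors 3 and 6 of 25, and other zinc fingers of the Zfp series 5 and 31 of 323.

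**Figure D4:**
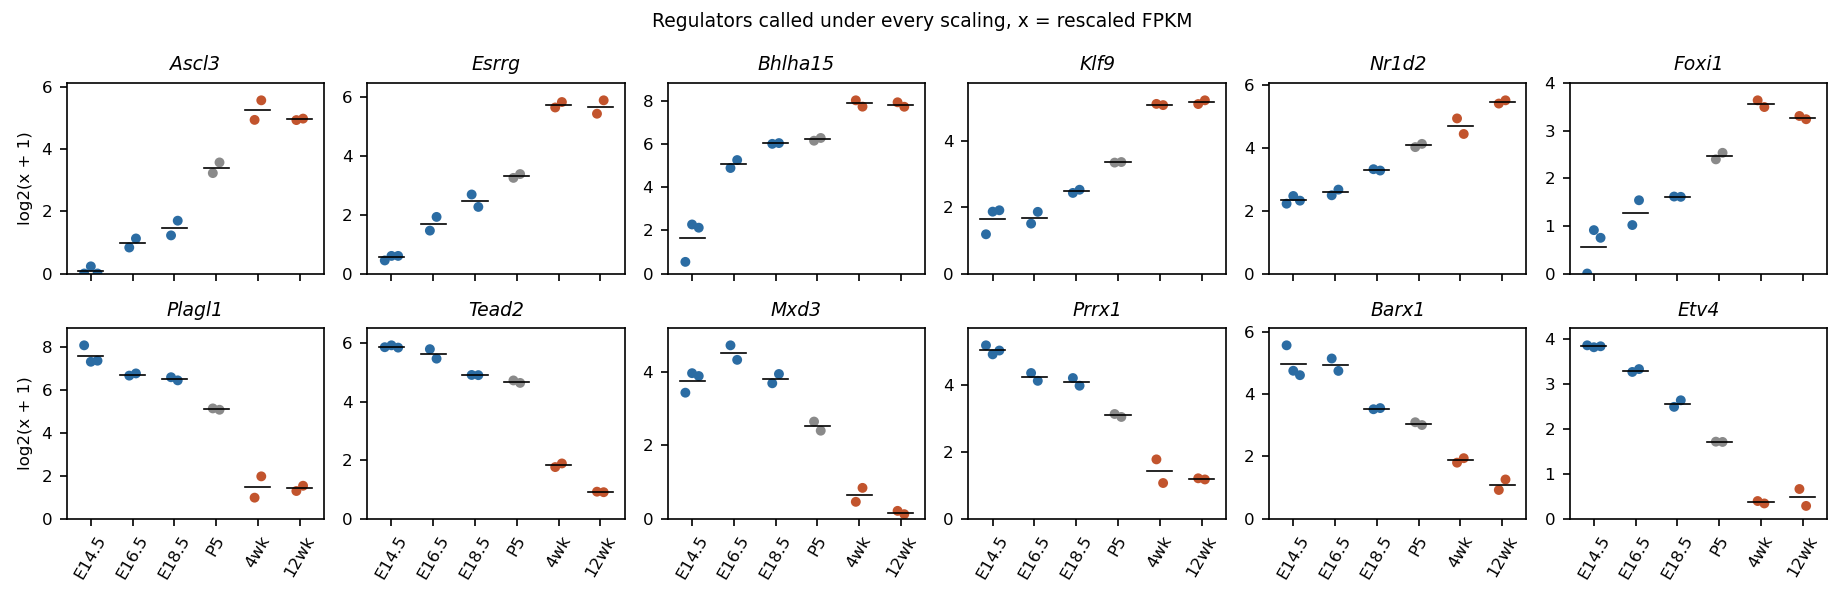
Level of 12 transcription factors in each sample as log2 of the rescaled FPKM plus 1, by time point (blue embryo, grey P5, orange adult, with a black bar at the mean of each time point). All 4 adult samples lie above the 7 embryonic samples for the upper 6 factors, from Ascl3 (difference 4.37) to Foxi1 (2.36), and below them for the lower 6. The factors were chosen among those without overlap.

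The regulators with the largest rises included factors of secretory cells and of hormone responses. Ascl3, a factor of duct progenitor cells, was between 0 and 2.24 (median 0.784) rescaled FPKM in the embryo and 29.7 and 46.4 at 4wk and 29.5 and 30.6 at 12wk, a difference of 4.37 ± 0.31 (SE, adjusted p = 9.46e-08). Bhlha15 (Mist1), which enlarges the secretory apparatus of exocrine cells, was between 0.454 and 65.3 (median 28.7) and then 261 and 213 at 4wk and 245 and 212 at 12wk. Its difference of 3.98 ± 0.93 (SE, adjusted p = 0.00214) had a wide error. Its mean was 2.55 at E14.5, 33.1 at E16.5 and 64.5 at E18.5, so that embryonic samples differed widely. Foxi1, a factor of ion-transporting epithelial cells, was between 0 and 2.07 (median 1.03) in the embryo and 11.5 and 10.3 at 4wk and 8.91 and 8.45 at 12wk, a difference of 2.36 ± 0.27 (SE, adjusted p = 6.51e-06).

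Several were nuclear receptors or targets of hormones. Esrrg, an orphan receptor that activates oxidative metabolism, was between 0.3601 and 5.43 (median 1.745) and then 48.9 and 55.7 at 4wk and 42.0 and 58.0 at 12wk, a difference of 4.27 ± 0.39 (SE, adjusted p = 9.38e-07). Klf9, a target of glucocorticoid and thyroid hormone, was between 1.27 and 4.74 (median 2.64) and then 33.4 and 32.6 at 4wk and 33.3 and 36.1 at 12wk, a difference of 3.23 ± 0.22 (SE, adjusted p = 5.54e-08). Nr1d2, a repressor of the circadian clock, was between 3.67 and 9.01 (median 4.63) and then 29.7 and 20.8 at 4wk and 41.7 and 44.8 at 12wk, a difference of 2.40 ± 0.25 (SE, adjusted p = 2.88e-06). The labels give no time of day.

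Others are factors of immune cells. Irf8, of macrophages and dendritic cells, differed by 2.59 ± 0.19 (SE, adjusted p = 1.26e-07), and Irf7, of the interferon response, by 2.34 ± 0.35 (SE, adjusted p = 6.21e-05). The summed level of 12 macrophage markers was between 78.5 and 217 in the embryo and between 387 and 476 in the adult, and that of 7 genes of MHC class II presentation between 10.6 and 28.4 and between 411 and 664. Their part in both regulators was not tested.

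For 8 salivary signature factors that the text of the study names, chosen there with adult glands of this series against other organs, the adult level is not independent evidence of direction. Of them 7 rose after rescaling and 5 under every scaling. The 5 were Ascl3, Bhlha15, Tfcp2l1 (2.17 ± 0.41 (SE, adjusted p = 4.80e-04)), Eaf2 (1.83 ± 0.32 (SE, adjusted p = 2.65e-04)) and Foxi2 (1.63 ± 0.16 (SE, adjusted p = 1.69e-06)). In Eaf2 a sample at 4wk (2.66) lay within the embryonic range of 0.570 to 3.07. The Ets factors Elf5 and Ehf were called under every scaling but the deposited one, with differences of 1.71 rescaled and 0.77 as deposited for Elf5 and 1.58 rescaled and 0.64 as deposited for Ehf, and Ehf was not called without the E14.5 samples.

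The regulators with the largest falls included an imprinted zinc finger, factors of mesenchyme and factors of the cell cycle. Plagl1, the imprinted factor, was between 85.6 and 268 (median 107) rescaled FPKM in the embryo and 0.961 and 2.90 at 4wk and 1.43 and 1.88 at 12wk, a difference of -5.59 ± 0.28 (SE, adjusted p = 4.87e-09). Tead2, a partner of YAP, was between 29.1 and 60.01 (median 54.7) and then 2.39 and 2.70 at 4wk and 0.890 and 0.867 at 12wk, a difference of -4.17 ± 0.26 (SE, adjusted p = 2.70e-08). Prrx1, a homeobox factor of mesenchyme, was between 14.9 and 35.7 (median 19.7) and then 2.42 and 1.09 at 4wk and 1.31 and 1.25 at 12wk, a difference of -3.25 ± 0.24 (SE, adjusted p = 1.39e-07). Barx1, a homeobox factor of branchial arch and stomach mesenchyme, fell by 3.08 on the log2 scale, from between 10.45 and 46.7 (median 25.9) to 2.48 and 2.84 at 4wk and 0.889 and 1.39 at 12wk. Fibroblast and mesenchyme markers fell in the same samples, by the sums given with the collagens, and their part in these factors was not tested.

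Mxd3, a Max partner found in dividing cells, was between 9.76 and 25.3 (median 14.3) in the embryo and 0.371 and 0.784 at 4wk and 0.155 and 0.0856 at 12wk, a difference of -3.59 ± 0.22 (SE, adjusted p = 2.63e-08). Foxm1, which activates mitotic genes, was between 9.99 and 17.1 (median 11.3) and then 1.21 and 0.466 at 4wk and 0.416 and 0.357 at 12wk, a difference of -3.04 ± 0.17 (SE, adjusted p = 1.03e-08). E2f8, a repressor among the E2f factors, fell by 2.71 on the log2 scale, from between 5.64 and 13.7 (median 9.26) to 1.5 and 0.607 at 4wk and 0.128 and 0.0904 at 12wk. These 3 fell beside the replication and mitosis genes. Klf14 was between 3.00 and 10.7 (median 6.80) in the embryo, 0 in 3 adult samples and 0.0187 in 12wk replicate 2. Sox11, a factor of embryonic progenitors, was between 1.20 and 9.08 (median 3.06) and then 0 and 0 at 4wk and 0.00796 and 0.0263 at 12wk, and Twist1, of mesenchyme, between 7.13 and 27.7 (median 14.7) and then 4.43 and 1.37 at 4wk and 1.03 and 0.853 at 12wk. Both fell under every scaling.

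Markers of the gland's epithelial cells, of macrophages and of MHC class II presentation were higher in the adult. Of all tested genes 13.8% rose after rescaling and 5.6% under every scaling. Of 11 acinar markers 7 rose after rescaling, and 6 of these whatever the scaling, with a sum between 51.3 and 62540 in the embryo and between 163900 and 301500 in the adult. Of 9 duct markers 6 rose, and 5 whatever the scaling, while Krt19 fell, with sums between 140.5 and 1127 and between 26590 and 34360. Of 9 basal and myoepithelial markers 6 rose, and 4 whatever the scaling, and Krt15 fell. The acinar markers Smgc and Muc19 were not called, and Dcpp genes of this list are near-identical copies. Of 7 genes of MHC class II presentation 6 rose under every scaling, with H2-Aa at 5.08 and Cd74 at 4.86 after rescaling. Of 12 macrophage markers 9 rose after rescaling and 3 (Cd14, Lyz2 and C1qa) under every scaling.

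Of the 10 fibroblast markers 8 fell, of 10 endothelial markers 4, of 10 neuronal markers 6, of 14 skeletal muscle markers 11 and of 6 erythroid markers all 6, under every scaling. Of all tested genes 14.7% fell under every scaling. Muscle marker sums were between 2.62 and 3.16 in 3 of 4 adult samples and 82.8 in 4wk replicate 1. In the embryo they were between 231 and 1368 at E14.5 and E16.5. At E18.5 they were 9.07 and 59.9, both below 4wk replicate 1. Erythroid sums were between 69.5 and 2515 in the embryo and between 4.72 and 7.05 in the adult. Only 6 of 15 listed erythroid genes were tested, and a gene present at 1 stage only enters by that stage. The globin entry Beta-s, outside this sum, took between 0.478% and 1.37% of embryonic FPKM and between 0.0107% and 0.0198% of adult FPKM. Adipocyte markers summed to 1233 in 4wk replicate 1 and between 111 and 152 in the other adult samples, and of 8 of them 5 rose, or 2 without that sample and 3 without any single E14.5 sample or E16.5 replicate 1. The adult samples thus differed in muscle and fat transcripts. Of 8 Schwann cell markers 1 rose (12.5%), and of 11 lymphocyte markers 2 rose (18.2%), or 4 without 4wk replicate 2, in which the lymphocyte sum was 3.74. Both shares were near the 13.8% of all tested genes that rose after rescaling.

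**Figure D5:**
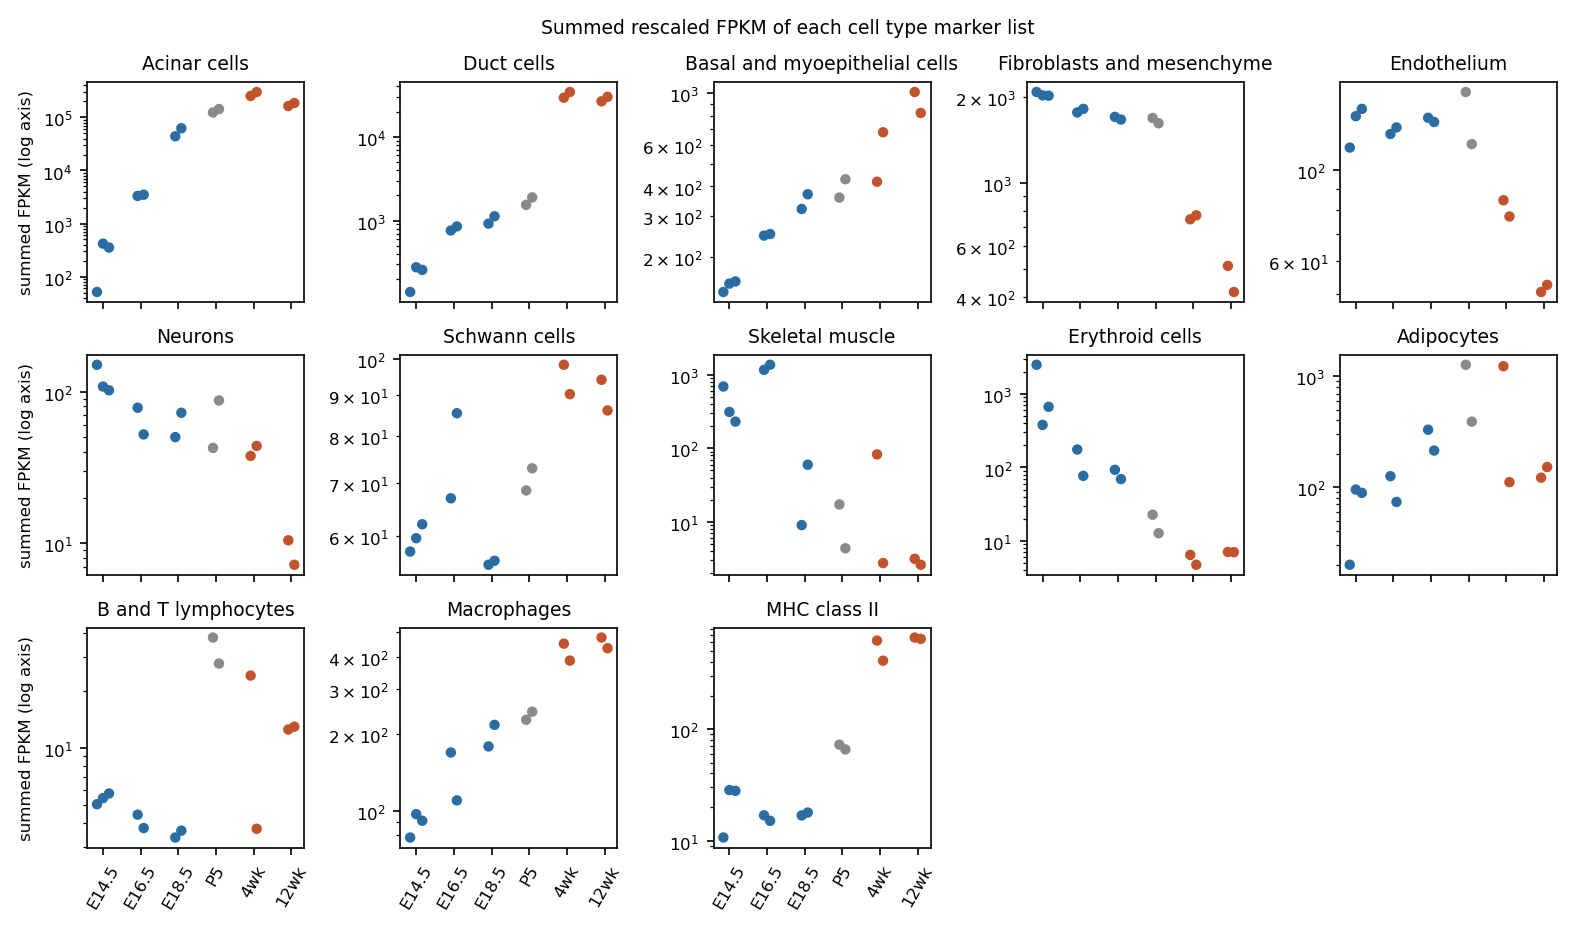
Summed rescaled FPKM of 13 cell type marker lists in each sample, on log axes, by time point (blue embryo, grey P5, orange adult). Acinar, duct, macrophage and MHC class II sums lie higher in all adult than in all embryonic samples, fibroblast and erythroid sums lower, and 4wk replicate 1 stands apart for skeletal muscle (82.8) and adipocytes (1233).

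Sex-linked transcripts moved with the groups as well. Xist, read from the inactive X chromosome of females, was between 9.71 and 39.5 (median 24.4) in the embryo and at most 0.0682 in the adult, a difference of -4.40 ± 0.35 (SE, adjusted p = 2.86e-07). It was thus found in every embryonic pool. Of 4 Y-linked genes, Eif2s3y and Uty were called higher under every scaling but the deposited one, with differences of 1.51 and 1.34. Ddx3y and Kdm5d were not called (0.93 and 0.60), and Kdm5d had the opposite sign as deposited (-0.16). Ddx3y was called higher without E18.5 replicate 1 (1.03). The part of sex in other genes was not tested.

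Each adult age was also set against the embryo on its own. Against the mean of the 3 embryonic time points, 2011 genes rose (13.8%) and 2175 fell (14.9%) at 4wk, and 2126 rose (14.6%) and 2236 fell (15.3%) at 12wk. The comparisons share the embryonic samples, and the 4 adult samples are those of the comparison of stages. Between both ages, 539 genes (3.69%) were higher and 476 (3.26%) lower at 12wk. Among them Hspa5, Creld2 and Cftr were higher at 12wk than at 4wk, by 1.37, 1.89 and 1.91 on the log2 scale, and Mcm6, Top2a and Cdk1 were lower, by differences of -2.12, -1.86 and -1.94.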

How the data were processed

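RNA was sequenced from whole submandibular glands as 50 bp single-end reads. The authors aligned reads to mm9 with TopHat2 2.0.13 and Bowtie2 2.2.6, counted them on genes with featureCounts, dropping reads of several places or genes, and deposited FPKM per gene and sample. The strand setting of the counting is not given in the sources used here. They ran DESeq2 1.10.1 on their counts, which are not used here.

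FPKM of each sample were divided by the median ratio to the geometric mean over 13039 genes above 0 in all 13 samples. Genes of at least 1 rescaled FPKM in at least 1 sample were tested on log2(FPKM + 1) with limma 3.58.1 (R 4.3.3, lmFit and eBayes with trend, 3 stages, adult minus embryo). Calls needed a difference of at least 1 in size and a Benjamini-Hochberg adjusted p below 0.1. The other scalings were FPKM as deposited, the 75th percentile, and a common total without the 28 genes over 1% of any sample. Both adult ages were compared in a fit with 6 time points, and 12wk was set against 4wk after the data were seen. The step was tested on simulated data with known changes. Reads on genes were recovered from steps of FPKM times gene length (GENCODE, 21207 names matched) and lay between 5817293 and 48314162.

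Members, gene lists, promoter motifs and the list of imprinted genes were chosen with earlier results of these data known. Named genes were the 6 largest changes in each direction called under every scaling without overlap, the 10 largest among regulators, up to 2 in each direction per list, up to 2 per list called after rescaling and not as deposited, and the 8 signature factors. Some genes that this rule names are not reported here. Other genes named beside a list, a motif or a pathway were chosen after their values were seen. Alternatives were other scalings, pseudocounts, filters, thresholds, a replicate block and leaving out samples. Tables were computed with Python 3.11.15, numpy 2.4.6 and pandas 2.3.3, and drawn with matplotlib 3.10.9.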

Additional observations from a re-analysis of the deposited data

Results flagged for a closer look

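In a group of 4 to 10 samples a value is given here when its gap to the nearest sample is a large part of the whole range (Dixon's 95% critical value). This held for 24 of 238 groups of samples tested, where chance gives about 1 in 20. The values are rescaled FPKM.

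In the embryo, erythroid markers summed to 2515 in E14.5 replicate 1 (other samples 69.54 to 671.4) and Schwann cell markers to 85.49 in E16.5 replicate 2 (55.27 to 66.92). E14.5 replicate 1 was also high in Plagl1 (267.6, others 85.61 to 162.5), Twist1 (27.67, others 7.134 to 15.21) and Slit2 (5.206, others 2.236 to 3.494). E16.5 replicate 2 was high in Dlk1 (425.6, others 337.1 to 356.7) and Notch3 (16.76, others 8.858 to 11.16), E16.5 replicate 1 in Cdk1 (86.12, others 46.09 to 57.25), and E18.5 replicate 1 in Cox7a1 (29.17, others 1.373 to 8.827).

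In the adult, 12 of these values came from 4wk replicate 1, the library with the fewest reads. It was high in skeletal muscle markers (82.84, others 2.618 to 3.156), adipocyte markers (1233, others 111.3 to 152.2) and Cox7a1 (161.8, others 41.15 to 56.17). It was also high in the proliferation genes Tk1 (9.141, others 2.274 to 3.271), Ube2c (9.564, others 2.6 to 3.463), Uhrf1 (10.35, others 2.286 to 2.523) and Foxm1 (1.213, others 0.3566 to 0.4663). The mesenchymal factors Prrx1 (2.423, others 1.093 to 1.309), Twist1 (4.429, others 0.8526 to 1.374) and Gli3 (0.7712, others 0.1676 to 0.1933), and the Y-linked Uty (12.24, others 8.113 to 8.527), were high there too. Rab27a was low there (37.67, others 61.25 to 63.8). 4wk replicate 2 was low in MHC class II genes (411.2, others 623.9 to 664.1) and high in Ascl3 (46.42, others 29.53 to 30.55). 12wk replicate 2 held the only adult value of Klf14 above 0 (0.01872).

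The adult ages differed by at least 1 on the log2 scale, with an adjusted p below 0.1, for 11 of the 102 genes given with values, in the difference 12wk minus 4wk tested by limma in a fit with 6 time points (Benjamini-Hochberg over all tested genes). Higher at 12wk were AF357359 by 2.78 (adjusted p = 0.00019), Cftr by 1.91 (adjusted p = 0.00011), Creld2 by 1.89 (adjusted p = 0.00017) and Hspa5 by 1.37 (adjusted p = 0.00048). Lower were Mcm6 with -2.12 (adjusted p = 0.00056), Cdk1 with -1.94 (adjusted p = 0.013), Top2a with -1.86 (adjusted p = 0.0013), Mcm5 with -1.3 (adjusted p = 0.0045), Ccnb1 with -1.19 (adjusted p = 0.0046), Peg3 with -1.1 (adjusted p = 0.009) and Nid2 with -1.02 (adjusted p = 0.0068). In each of these genes both 12wk samples lay on the same side of both 4wk samples.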

How the results depend on the processing

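The scaling was the choice that mattered most. As deposited, 6385 genes were called (818 rises and 5567 falls), and the share of rises among calls was 12.8%, where it was 48.5% after rescaling, 42.2% with the 75th percentile and 40.6% with a common total. The deposited values gave 6381 calls at 4wk (764 rises and 5617 falls), and 873 rises and 5490 falls at 12wk. Kdm5d (-0.16) had the opposite sign as deposited. With a pseudocount of 0.1, 2555 genes rose and 3198 fell, and at 4wk 3339 fell. Leaving out each sample in turn gave 4004 to 4403 calls after rescaling, with 1919 to 2140 higher and 2085 to 2263 lower, and 2846 to 3153 under every scaling, with 761 to 890 higher and 2085 to 2263 lower. At 4wk the ranges were 4144 to 4750 calls, with 1986 to 2250 rises and 2139 to 2500 falls, and the 12wk comparison gave 4317 to 4421, with 2098 to 2167 rises and 2213 to 2266 falls. Without all E14.5 samples 1654 rose and 1936 fell.

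With the replicate number as a block, 1937 genes rose and 2095 fell, and 763 and 2066 of the calls under every scaling were kept. Deviations of samples with the same number had a mean correlation of -0.01 over 30 pairs (0.01 over 40 pairs of different numbers), so the numbers give no pairing. Of 3162 values of the 102 genes under all settings, 3133 kept their direction and side of the threshold, 18 lost the call, 10 gained it and 1 changed sign. Of 3968 list counts, 3727 stayed within 1.5 times and 241 moved further. The count models planned for tables of counts were not run, since the tables hold FPKM. Low values in both 4wk samples rest on few reads, and no scaling measures RNA per cell.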

Other observations

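Imprinted genes, which are read mainly from 1 parental copy and of which many act in fetal growth, took many of the largest falls. Because H19, Dlk1, Igf2, Cdkn1c and Plagl1 stood among the largest falls, 36 imprinted mouse genes were listed after those values had been seen, and the list was therefore not tested. Of the 33 that reached the level for testing, 21 fell under every scaling (63.6%), where 14.7% of all tested genes did, and 26 fell as deposited. The median difference was -2.65 after rescaling and -2.95 as deposited. Peg3, a zinc finger factor, was between 63.3 and 192 (median 92.2) rescaled FPKM in the embryo and 2.83 and 1.88 at 4wk and 0.548 and 0.554 at 12wk, a difference of -5.46 ± 0.32 (SE, adjusted p = 1.93e-08). Meg3, a long noncoding RNA of the Dlk1 locus, was between 16.1 and 88.9 (median 65.0) and then 1.18 and 1.31 at 4wk and 0.547 and 0.676 at 12wk, a difference of -4.76 ± 0.36 (SE, adjusted p = 1.72e-07).

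Not all moved that way. Slc22a18, a transporter beside Cdkn1c on chromosome 7, rose under every scaling, from between 1.19 and 2.96 rescaled FPKM in the embryo to 12.4 and 11.9 at 4wk and 13.1 and 9.02 at 12wk, and Zrsr1 rose after rescaling and not as deposited. Igf2r, the receptor that clears IGF2, was between 27.5 and 67.0 (median 47.6) in the embryo and 18.1 and 20.6 at 4wk and 25.1 and 25.3 at 12wk, a difference of -0.93 that was not called after rescaling. It was called lower as deposited (-1.84), and after rescaling without E16.5 replicate 1 (-1.01) or without E18.5 replicate 2 (-1.03).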
